A study of Mus musculus with 12 samples.

Results

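The CXC chemokines and their receptors were described here through 10 genes, chosen by name from the deposited gene tables: the 6 ligands Cxcl1, Cxcl2, Cxcl9, Cxcl10, Cxcl16 and Cxcl12, and the 4 receptors Cxcr2, Cxcr3, Cxcr4 and Cxcr6. All 10 were found among the 54367 genes of each table. The retinas came from wildtype C57BL/6 mice, 8 to 12 weeks old, whose right eye had been burned at 4 clock positions by photocoagulation (532 nm, 75 µm spot, 0.1 s). The left eye of each mouse was left unlasered as the control, so both groups carry the same genotype and anaesthesia. Poly(A) RNA was sequenced in 4 groups of 3 retina libraries: day 3 laser, day 3 control, day 7 laser and day 7 control. The title names retinal angiogenesis in the inflammatory stage, and the question put to the data was which of these chemokine genes differed between lasered and control retinas of the same day.

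CXC chemokines are small secreted proteins that guide leukocytes through receptors coupled to inhibitory G proteins. Cxcl1 and Cxcl2 carry the ELR sequence before the CXC motif, act on Cxcr2 and draw neutrophils, and their transcription is a standard target of NF-kB. Cxcl9 and Cxcl10 are induced by interferons and act on Cxcr3 of activated T cells and NK cells, and Cxcl10 is also made by activated glia. Cxcl16 is anchored in the membrane until it is shed, and binds Cxcr6, while Cxcl12 is expressed in many healthy tissues and binds Cxcr4, a pair that guides stem cells, neurons and vessels.

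The stretch just before the start of 3 ligand genes is shown. The member ligands that NF-kB and interferon are known to drive lie close together on chromosome 5, and these 3 were picked because they hold the letters searched for. The sequences are from RefSeq (GRCm38.p6), read 5′ to 3′ on the gene's own strand and ending before the first annotated base of the gene. Capitals mark matches to GGGANNTTCC, a form of the NF-kB site, or to GAAANNGAAA, a form of the interferon-stimulated element, searched on both strands.
Cxcl1 (chr5:90890995-90891240, + strand): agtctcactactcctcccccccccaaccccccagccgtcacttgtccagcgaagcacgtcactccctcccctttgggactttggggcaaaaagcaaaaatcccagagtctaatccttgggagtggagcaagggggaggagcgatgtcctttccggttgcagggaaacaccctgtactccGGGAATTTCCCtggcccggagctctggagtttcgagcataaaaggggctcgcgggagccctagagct
Cxcl2 (chr5:90903649-90903870, + strand): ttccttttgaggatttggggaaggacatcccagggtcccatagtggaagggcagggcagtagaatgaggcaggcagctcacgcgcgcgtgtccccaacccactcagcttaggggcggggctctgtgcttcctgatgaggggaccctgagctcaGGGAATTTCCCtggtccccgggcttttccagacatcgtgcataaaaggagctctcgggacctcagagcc
Cxcl10 (chr5:92348890-92349139, - strand): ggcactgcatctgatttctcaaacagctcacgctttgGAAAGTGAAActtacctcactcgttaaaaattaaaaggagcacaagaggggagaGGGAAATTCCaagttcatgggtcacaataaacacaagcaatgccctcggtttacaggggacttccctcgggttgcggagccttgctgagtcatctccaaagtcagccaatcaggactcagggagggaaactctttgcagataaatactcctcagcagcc

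Windows of 250 bases before to 50 bases after the RefSeq start were found for 9 of the 10 members, all but Cxcl16. GGGANNTTCC stood in the windows of Cxcl1 (starting at position -71), Cxcl2 (-97) and Cxcl10 (-159), counted from the RefSeq start, and in 1.47% of all 32851 windows. It also stood in that of Cxcl3 (-73), a ligand on chromosome 5 that is not a member. In Cxcl1 and Cxcl2 the same letters also matched on the other strand, shifted by a base, so that each pair of matches overlaps and is capitalised as a single run. GAAANNGAAA stood in the window of Cxcl10 alone among the 9 (-213), and in 3.44% of all windows. A match describes the letters and shows no binding of a factor.

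None of the 10 members passed the threshold on either day. The tests used limma on log2(value + 1), on the genes whose values averaged 1 or more in a day's 6 libraries, with an adjusted p (Benjamini-Hochberg over all genes tested) of 0.05. Values here are the deposited ones, a signal per gene scaled to the gene's length and the library, and fold changes are laser minus control on that log2 scale, so those of low genes come out too small. On day 3, 7 members were tested and 0 passed (adjusted p from 0.106 to 0.368), where 25 of 16786 genes passed (0.149%). At an unadjusted p under 0.05 there were 3 members, Cxcl10, Cxcl16 and Cxcl12, all higher, beside 20.7% of tested genes higher at that level. On day 7, 3 members were tested and 0 passed (adjusted p from 0.218 to 1.000), where 38 of 15592 genes passed (0.244%), and 1 member, Cxcl16, was at an unadjusted p under 0.05, beside 3.14% of tested genes higher. By voom on recovered reads 0 members passed on both days. The labels give 3 samples per group and do not say which libraries came from the same mouse, so the p-values speak only of the spread among these samples, which may be technical.

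The libraries of day 3 were unequal, and this bears on each day 3 result below. Lasered library 1 held the highest value of the 6 libraries in 10 of 10 members, beside 39.8% of all tested genes. Its summed neutrophil markers (9 genes) reached 1114, against 4.10 and 61.1 in the other lasered libraries and 2.88 to 4.44 in the controls, and its summed monocyte and macrophage markers (10 genes) reached 1020, against 66.6 and 119 in the other lasered libraries and 15.7 to 18.1 in the controls. Its summed markers of retinal neurons and Müller glia (14 genes) were 5746, against 13099 and 11184 in the other lasered libraries and 14428 to 17163 in the controls. A large part of the neutrophil sum of lasered library 1 was S100a8 and S100a9. On day 3 they averaged 167 (SD 268) and 183 (SD 295) in lasered and 0.763 and 1.23 in control retinas. On day 7 the markers of retinal neurons and Müller glia summed to 29566 to 33830 in lasered and 34959 to 39153 in control retinas, and the neutrophil markers to 3.10 to 4.89 in lasered and 0.999 to 2.32 in control retinas. Summed markers of pigment epithelium, lens and cornea (8 genes) were highest in lasered library 2 of day 3 (343, with 16.6 and 88.0 in the other lasered and 44.6 to 83.4 in control libraries) and lasered library 1 of day 7 (851, with 65.8 and 45.8 in the other lasered and 47.0 to 70.6 in control libraries). These sums pool unlike tissues, and of 6 tested 3 were positive on day 3 and 4 on day 7. The lens gene Crybb2 averaged 53.1 (SD 90.0) in lasered and 0.383 in control retinas of day 3. Another, Cryaa, averaged 182 (SD 315) and 0.242 on day 7. The pigment gene Pmel averaged lower in lasered retinas on both days (3.57 against 8.64, then 8.20 against 23.5). None of them passed. Of the 4 B cell markers 0 were tested on either day. The libraries held 8738241 to 11879998 recovered reads on day 3 and 22683098 to 29487383 on day 7. In bulk retina, a change in the number of cells of a type and a change in RNA per cell cannot be told apart.

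**Figure D1:**
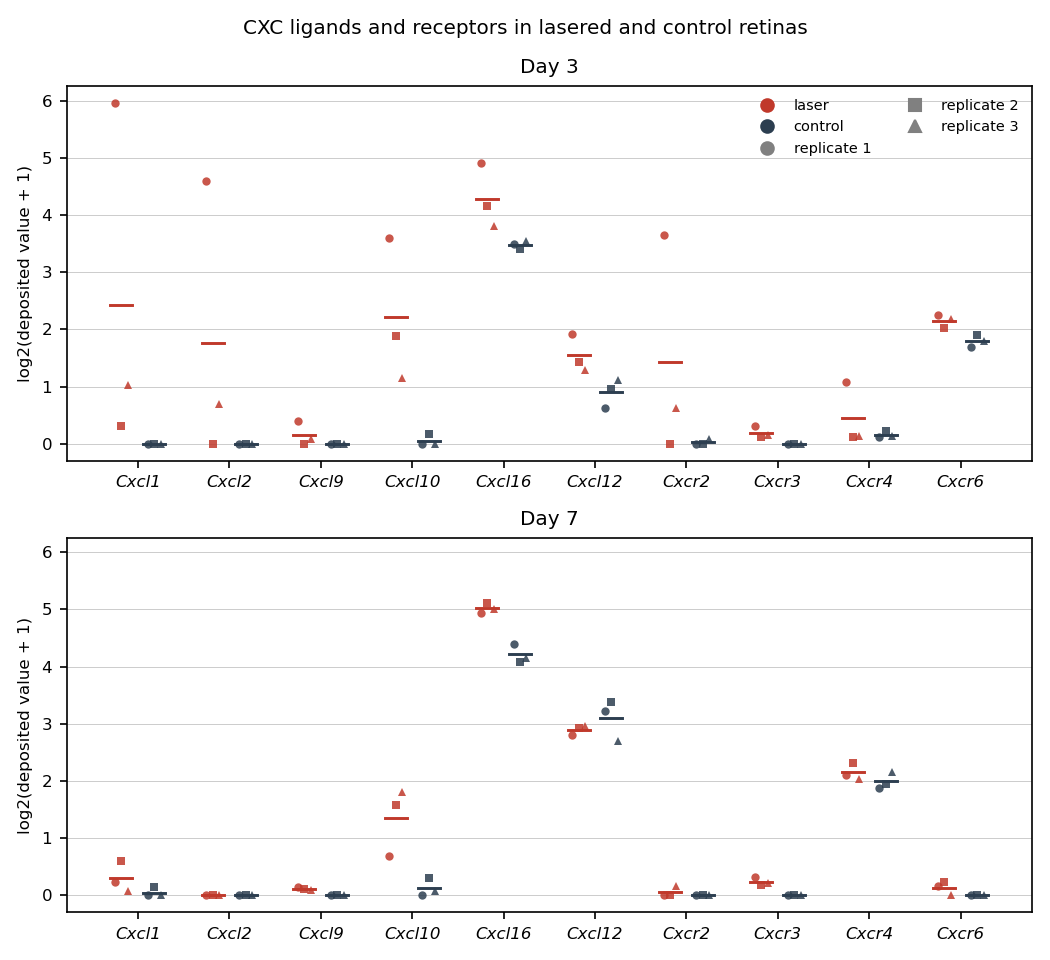
Level of each of the 10 members by library, as log2(deposited value + 1), on day 3 (top) and day 7 (bottom). Red marks are lasered and dark marks control retinas, the shape gives the replicate number and the bars are group means (n = 3). On day 3 the red circle, lasered replicate 1, is the highest mark of every member, and on day 7 Cxcl10 and Cxcl16 stand apart between the groups.

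The lasered and control values did not overlap, with the lasered ones higher, in 6 of 10 members on day 3: Cxcl1, Cxcl10, Cxcl16, Cxcl12, Cxcr3 and Cxcr6. Across all genes above 0 in any library this held for 17.4%, and among tested genes for 27.7%. Since lasered library 1 was the highest for every member, this count rests on the other lasered libraries. On day 7 it held for 4 of 10 members, Cxcl9, Cxcl10, Cxcl16 and Cxcr3, beside 5.59% of genes above 0 and 6.78% of tested genes. For Cxcl9 and Cxcr3 on day 7, and for Cxcr3 on day 3, this rests on few reads. They number 1 to 4 per lasered library against 0 in the controls, which is at or near the floor of 3 reads.

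Cxcl1 and Cxcl2, the neutrophil-attracting ligands of Cxcr2, were read almost entirely in lasered retinas of day 3 and mainly in 1 of them. Cxcl1 (ENSMUSG00000029380, chromosome 5, 90891241 to 90893115, mm10) had values of 61.2, 0.236 and 1.04 in lasered retinas (567, 3 and 11 reads) and 0 in all 3 controls, where 3 reads would be 0.241 to 0.330. Lasered library 1 held nearly all of these reads, although the groups did not overlap. The mean was at least 76.7-fold higher in lasered retinas against a floor of 3 reads per control library, and at least 2.34-fold higher without lasered library 1. Its log2 fold change was 2.43 (SE 1.33, adjusted p = 0.315), and ran from 1.16 with library weights to 5.72 by voom.

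Cxcl2 (ENSMUSG00000058427, chromosome 5, 90903871 to 90905938), its neighbour, had 23.2, 0 and 0.623 in lasered retinas (239, 0 and 7 reads) and 0 in the controls. Lasered library 2 lay with the controls, so the groups overlapped. The mean was at least 32.3-fold higher, and at least 1.27-fold higher without lasered library 1, with a log2 fold change of 1.77 (SE 1.08, adjusted p = 0.364), which ran from 0.74 with library weights to 4.03 by voom. By day 7 Cxcl1 had 3, 8 and 1 reads in lasered and 0, 2 and 0 reads in control retinas, and Cxcl2 had 0 reads in every library. Cxcl1, Cxcl2 and Cxcl3 are close paralogs, so reads may have been split among them by the counting.

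Cxcr2 (ENSMUSG00000026180, chromosome 1, 74153989 to 74161246), the receptor of these ligands on neutrophils, had the same order of libraries. Its values were 11.5, 0 and 0.543 in lasered retinas (167, 0 and 9 reads) and 0, 0 and 0.0658 in the controls (0, 0 and 1 read). The ratio of read totals per depth was 189 (95% exact interval 33.5 to 7505, counting error only), and 13.6 (1.88 to 596) without lasered library 1. The log2 fold change was 1.39 (SE 0.86, adjusted p = 0.368), and ran from 0.59 with library weights to 3.45 by voom. On day 7 Cxcr2 had 0, 0 and 4 reads in lasered retinas and 0 in the controls.

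Other ligands of Cxcr2, named after their values were seen, had the same order of lasered library 1 first. Cxcl3 had 178, 0 and 4 reads in lasered retinas of day 3 and 0 in the controls, and Cxcl5 had 468, 10 and 6 reads against 2, 0 and 0. The neutrophil markers gave 1573, 6 and 88 reads of S100a8 in the lasered libraries and 3, 1 and 5 in the controls, and 6, 0 and 2 reads of Ly6g against 0 in all controls. Of the 9 neutrophil markers 4 were tested on day 3 and 0 passed, and their part in the values of Cxcl1, Cxcl2 and Cxcr2 was not tested. These 3 members and Cxcl10 reached the filter of day 3 through lasered library 1, and without that library they were not among the genes tested.

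**Figure D2:**
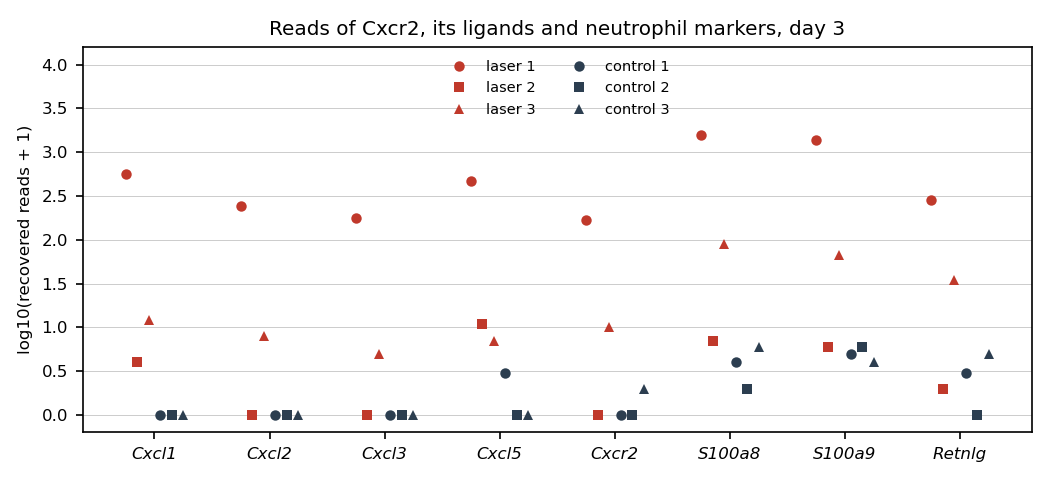
Recovered reads per library on day 3, as log10(reads + 1), for Cxcr2, its ligands Cxcl1, Cxcl2, Cxcl3 and Cxcl5, and the neutrophil markers S100a8, S100a9 and Retnlg. Red marks are the 3 lasered and dark marks the 3 control libraries; lasered library 1 is the highest for every gene, with 567 reads of Cxcl1, and lasered library 2 has 0 reads of Cxcl2, Cxcl3 and Cxcr2.

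Cxcl10 had more reads in every lasered library than in any control on both days. Cxcl10 (ENSMUSG00000034855, chromosome 5, 92346638 to 92348889), the interferon-induced ligand of Cxcr3, had 11.1, 2.68 and 1.23 in lasered retinas of day 3 (123, 39 and 15 reads) and 0, 0.127 and 0 in the controls (0, 2 and 0 reads). The lowest lasered library lay well above the highest control. The ratio of read totals per depth was 95.0 (95% exact interval 25.9 to 791), and 40.8 (10.8 to 346) without lasered library 1. The log2 fold change of 2.16 (SE 0.57) did not pass (adjusted p = 0.106), and ran from 1.70 with library weights to 5.67 by voom, with 4.72 at a pseudocount of 0.1. In the joint fit of 12 libraries it did (adjusted p = 0.0306, in a range of 0.0306 to 0.327 over the alternatives). That fit called 1016 of 17611 genes on day 3, against 25 of 16786 in the main fit.

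On day 7 Cxcl10 had 0.609, 1.98 and 2.50 in lasered retinas (13, 37 and 58 reads) and 0, 0.236 and 0.0541 in the controls (0, 5 and 1 reads). The groups again stood apart, and the ratio of read totals per depth was 17.4 (7.72 to 48.4). Its mean over the 6 libraries was under 1, so it was not tested, and with no filter it did not pass (log2 fold change 1.23, SE 0.31, adjusted p = 0.661). The difference between its log2 fold changes on day 7 and day 3 was -0.93 (SE 0.70, adjusted p = 0.748), or 7.64e-05 with library weights. Cxcl10 reached the filter of that test through lasered library 1 of day 3, and without that library it was not tested. Its exons share 133 bases, 5.91% of them, with Art3 on the opposite strand, and the sources used here do not give whether the counting used strand.

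Cxcl9 and Cxcr3, the other interferon-induced ligand and the receptor it shares with Cxcl10, were near the floor. Cxcl9 (ENSMUSG00000029417, chromosome 5, 92321347 to 92328079) had 5, 0 and 1 reads in lasered retinas and 0 in the controls on day 3, and 3, 2 and 2 against 0 on day 7. Cxcr3 (ENSMUSG00000050232, chromosome X, 101731535 to 101734269) had 2, 1 and 1 reads in lasered retinas and 0 in the controls on day 3, and 4, 2 and 3 against 0 on day 7. With both groups at or under the floor of 3 reads per library for most of these values, no fold is given. T and NK cell markers, on whose cells Cxcr3 is known, summed to 15.7, 2.07 and 0.988 in lasered and 0.700 to 1.67 in control retinas of day 3, and to 1.79, 2.95 and 1.98 in lasered and 1.03 to 1.23 in control retinas of day 7. None of the 13 was tested on either day. Cd3e, a subunit of the T cell receptor complex, had 11, 0 and 0 reads in lasered and 2, 0 and 0 in control retinas of day 3, and the part of these cells in the values of Cxcr3 was not tested.

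Cxcl16 was the most abundant of the 10 members in all 6 control libraries and in the lasered libraries of day 7, and stood apart between the groups on both days. Cxcl16 (ENSMUSG00000018920, chromosome 11, 70453983 to 70459984) had 29.8, 33.5 and 31.3 in lasered retinas of day 7 and 20.2, 16.0 and 16.8 in the controls. Every lasered library was higher than every control, with means of 31.5 ± 1.84 and 17.7 ± 2.20 (SD, n = 3 each) and a ratio of 1.79. The log2 fold change was 0.81 (SE 0.16) and did not pass (adjusted p = 0.218). It passed when limma weighted the libraries (adjusted p = 0.0394, in a range of 0.0394 to 1.000 over the alternatives). With those weights 114 of 15592 genes passed on day 7, against 38 in the main fit.

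On day 3 Cxcl16 had 28.9, 16.8 and 13.0 in lasered and 10.3, 9.64 and 10.7 in control retinas. Lasered library 1 was the highest and the controls lay close together. The ratio of means was 1.92, and 1.46 without lasered library 1, with a log2 fold change of 0.80 (SE 0.27, adjusted p = 0.148), or 0.50 without that library. The log2 fold change on day 7 minus that on day 3 was 0.0031 (SE 0.33, adjusted p = 1.000), a difference far under its own SE. Exons of Zmynd15 on the opposite strand cover 552 bases, 18.3%, of the exon bases of Cxcl16.

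Microglia are known to produce Cxcl16 and Cxcl10 among other myeloid and glial cells, and microglial markers are given beside both. The 13 microglial markers summed to 257, 162 and 178 in lasered retinas of day 3 and 46.7 to 55.5 in the controls, with 9 of 11 tested positive, 2 negative and 2 called higher, Fcrls and C1qb (1 called under either rescaling, by median-of-ratios or quantiles). On day 7 they summed to 415 to 500 in lasered and 131 to 149 in control retinas, with 5 of 10 tested called higher (2 with median-of-ratios rescaling and 4 with quantile normalization). The 5 called were Fcrls, Csf1r, C1qa, C1qb and C1qc. A large part of these sums was C1qa, C1qb and C1qc, with means of 124, 125 and 57.2 in lasered and 32.1, 30.8 and 14.7 in control retinas. The 10 monocyte and macrophage markers summed to 94.8 to 131 in lasered and 14.4 to 16.5 in control retinas of day 7, with 2 of 3 tested called higher, Lyz2 and Cd68 (1 with quantile normalization). The part of these cells in the values of Cxcl10 and Cxcl16 was not tested.

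Cxcl12 had higher values in lasered retinas of day 3, while on day 7 the groups overlapped. Cxcl12 (ENSMUSG00000061353, chromosome 6, 117168535 to 117181367) had 2.77, 1.71 and 1.44 in lasered and 0.552, 0.946 and 1.18 in control retinas of day 3. The lowest lasered library was above the highest control by less than the spread within either group. The ratio of means was 2.22, and 1.77 without lasered library 1, with a log2 fold change of 0.64 (SE 0.25, adjusted p = 0.182), which ran from 0.43 to 1.13 over the alternatives. On day 7 it had 5.97, 6.59 and 6.76 in lasered and 8.30, 9.36 and 5.46 in control retinas, a log2 fold change of -0.20 (SE 0.24, adjusted p = 1.000), and library weights turned its sign (0.085). The difference between the days was -0.84 (SE 0.33) and did not pass (adjusted p = 0.471). Of the 8 endothelial markers, cells in which Cxcl12 is known, the sums were 23.5, 15.7 and 12.6 in lasered and 7.57 to 9.64 in control retinas of day 3, and 33.5 to 71.2 in lasered and 45.8 to 90.4 in control retinas of day 7, with 0 called on both days. Their part in the values of Cxcl12 was not tested.

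Cxcr4 (ENSMUSG00000045382, chromosome 1, 128588199 to 128592293), the receptor of Cxcl12, did not stand apart between the groups on either day. It had 3.32, 3.98 and 3.11 in lasered retinas of day 7 and 2.67, 2.88 and 3.49 in the controls, a log2 fold change of 0.16 (SE 0.22, adjusted p = 1.000), which was -0.012 with library weights. On day 3 it had 1.11, 0.0831 and 0.106 in lasered retinas (10, 1 and 1 reads) and 0.0845, 0.164 and 0.105 in the controls (1, 2 and 1 reads). Only lasered library 1 was above the floor of 3 reads, and the gene was not tested on day 3.

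Cxcr6 (ENSMUSG00000048521, chromosome 9, 123806475 to 123811760), the receptor of Cxcl16, had 3.74, 3.08 and 3.53 in lasered and 2.23, 2.73 and 2.47 in control retinas of day 3. The groups did not overlap, with means of 3.45 ± 0.336 and 2.48 ± 0.250 (SD, n = 3 each), and the log2 fold change was 0.35 (SE 0.16, adjusted p = 0.231), or 0.18 with median-of-ratios rescaling and 0.12 with quantile normalization. On day 7 it had 2, 3 and 0 reads in lasered retinas and 0 in all 3 controls. Cxcr6 lies inside Fyco1, which is on the opposite strand, with 0 shared exon bases. Fyco1 had 64.6, 83.7 and 97.2 in lasered and 68.3, 86.9 and 90.3 in control retinas of day 3, and 7.35, 29.7 and 11.6 in lasered and 9.66, 20.5 and 10.6 in control retinas of day 7. Reads from unspliced Fyco1 RNA that cover Cxcr6 cannot be told apart from Cxcr6 if strand was not used.

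**Figure D3:**
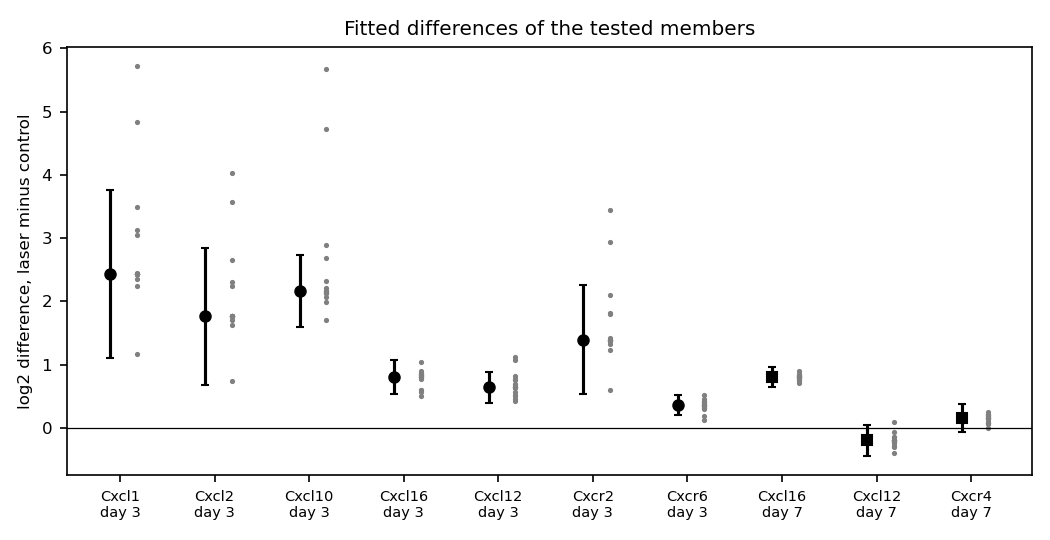
Log2 fold change, laser minus control, of the members tested, for day 3 (black circles) and day 7 (black squares), with SE bars (n = 3 libraries per group); grey dots are the same quantity under each alternative setting. Cxcl1, Cxcl2 and Cxcr2, with nearly all of their day 3 reads in lasered library 1, have the widest bars. Cxcl10, with most of its day 3 reads in that library, has the next widest, and Cxcl16 on day 7, at 0.81, has a narrow one.

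The order of the members' levels per length differed between the tables of the 2 days, which were normalized separately, so these levels are set side by side with no test. In day 3 controls the order was Cxcl16 (10.2 ± 0.513), Cxcr6 (2.48 ± 0.250), Cxcl12 (0.891 ± 0.316) and Cxcr4 (0.118 ± 0.0415), with SD and n = 3, and no neighbours in this order overlapped. In day 7 controls it was Cxcl16 (17.7 ± 2.20), Cxcl12 (7.71 ± 2.02) and Cxcr4 (3.01 ± 0.425), again without overlap between neighbours, and the other 7 members had means under 0.1. Every library of day 3 had a Cxcr6 value of 2.23 to 3.74, and every library of day 7 one of 0 to 0.179.

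**Figure D4:**
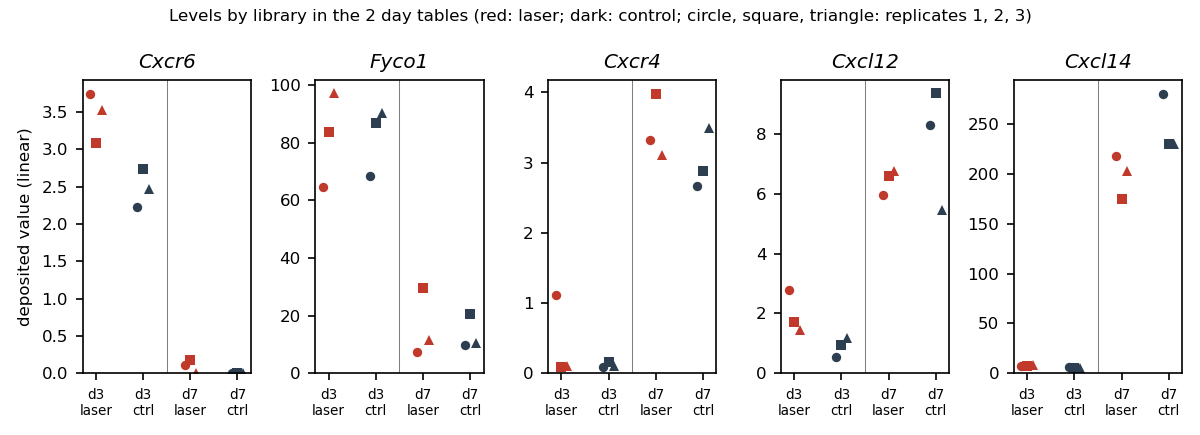
Deposited value by library, on linear axes that start at 0, of Cxcr6, Fyco1, Cxcr4, Cxcl12 and Cxcl14 in lasered (red) and control (dark) retinas of day 3 (left of each line) and day 7 (right). Shapes give the replicate number; Cxcr6 and Fyco1 are higher in the day 3 table and Cxcr4, Cxcl12 and Cxcl14 in the day 7 table, in both groups.

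Among the other 13 CXC chemokines and receptors listed, 9 were tested on day 3 and 3 on day 7, and 0 passed on either day. The smallest p-values of day 3 belonged to Cxcl13, which draws B cells through Cxcr5, and Cxcl14. Cxcl13 had 33.9, 11.0 and 14.1 in lasered and 6.07, 7.50 and 6.80 in control retinas (log2 fold change 1.25, SE 0.37, adjusted p = 0.124), and Cxcl14 had a log2 fold change of 0.37 (SE 0.14, adjusted p = 0.189). Cxcr5 had at most 2 reads in any library. The platelet chemokines Pf4 and Ppbp, named after their values were seen, had 1339, 12 and 18 reads and 226, 2 and 1 reads in lasered retinas of day 3, against 2, 3 and 1 and 1, 2 and 3 in the controls. On day 7 the smallest p-values belonged to Cxcl14 (-0.31, SE 0.15, adjusted p = 1.000) and to Ackr1, a receptor that binds many chemokines without signalling through G proteins (0.26, SE 0.20, adjusted p = 1.000).

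Genes of interferon signalling, which acts upstream of Cxcl9 and Cxcl10, had 13 tested on each day and 0 past the threshold on either day. They were positive in 13 on day 3 (12 with median-of-ratios rescaling or quantile normalization) and in 12 on day 7 (11 with median-of-ratios rescaling). The list was chosen with earlier results of these data known, so these counts are a description only. Their median log2 fold change was 1.03 on day 3 and 0.41 on day 7, beside 0.16 and 0.06 for all genes tested. Irf9, a subunit of the complex that interferon activates, had 169, 28.7 and 39.5 in lasered and 4.58, 4.04 and 3.47 in control retinas of day 3 (3.56, SE 0.59, adjusted p = 0.0883), and 30.9, 41.8 and 35.7 against 16.6, 16.7 and 16.4 on day 7 (1.07, SE 0.16, adjusted p = 0.0831). The groups stood apart on both days. Irf1, a transcription factor induced by interferon, had log2 fold changes of 2.35 (SE 0.60, adjusted p = 0.103) on day 3 and 0.86 (SE 0.18, adjusted p = 0.261) on day 7. Ifng, named after its values were seen, had 1 read in lasered library 1 of day 3 and 0 elsewhere, and Ifnb1 had 0 in every library.

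Genes of NF-kB and IL-17 signalling, upstream of Cxcl1 and Cxcl2, had 9 tested on day 3 and 11 on day 7, with 0 past the threshold and medians of 0.73 and 0.26. On day 3, 8 were positive and 1 negative, and on day 7, 10 were positive and 1 negative. The negative gene of day 3 had an unadjusted p under 0.05 in limma. Tnfrsf1a, a receptor of TNF, had 37.7, 13.4 and 16.1 in lasered and 3.18, 3.70 and 2.97 in control retinas of day 3 (2.31, SE 0.35, adjusted p = 0.0853), and 38.3, 32.3 and 44.3 against 17.9, 15.5 and 15.6 on day 7 (1.18, SE 0.17, adjusted p = 0.0700). Nfkbia, the inhibitor that NF-kB itself induces, had 71.3, 30.0 and 28.3 in lasered and 12.9, 12.8 and 12.8 in control retinas of day 3 (1.54, SE 0.33, adjusted p = 0.0915). Myd88, the adaptor of Toll-like and IL-1 receptors, had a log2 fold change of 0.62 on day 7 (SE 0.15, adjusted p = 0.398).

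Of the genes that act below chemokine receptors, 7 were tested on day 3 and 11 on day 7, with 0 past the threshold and medians of 0.66 and 0.24. On day 3, 6 were positive and 1 negative, and on day 7, 8 were positive and 3 negative. Rac2, the GTPase of blood cells that drives their movement, had 23.3, 3.87 and 5.52 in lasered and 0.788, 0.814 and 0.671 in control retinas of day 3 (2.38, SE 0.55, adjusted p = 0.0938), and 2.16, 2.85 and 3.07 against 0.380, 0.0987 and 0.853 on day 7 (1.38, SE 0.28, adjusted p = 0.264). Gnai2, an inhibitory G protein subunit, had a log2 fold change of 0.73 on day 3 (SE 0.21, adjusted p = 0.117), and Vav1, an exchange factor of Rac proteins, one of 0.84 on day 7 (SE 0.24, adjusted p = 0.650).

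A further list of 8 genes held enzymes that process CXC chemokines, and Mif with its receptor Cd74. Of these genes 6 were tested on each day, 0 passed on day 3 and 1, Cd74, passed on day 7. Medians were 0.55 on day 3 and 0.19 on day 7, with 4 positive and 2 negative on day 3 and 5 positive and 1 negative on day 7. Cd74, the invariant chain of MHC class II that also binds Mif together with Cxcr4 or Cxcr2, rose on day 7, with 51.6, 36.7 and 38.7 in lasered and 2.08, 1.45 and 1.68 in control retinas (3.98, SE 0.21, adjusted p = 0.00309). On day 3 it had 148, 8.80 and 21.8 in lasered and 3.23, 3.32 and 2.63 in control retinas (2.99, SE 0.87, adjusted p = 0.121). Mmp9, a matrix protease that trims ELR chemokines, had a log2 fold change of 1.16 on day 3 (SE 0.43, adjusted p = 0.169).

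The test of whether the log2 fold change on day 7 differed from that on day 3 called 0 of 17611 genes (0%), with 1654 at an unadjusted p under 0.05 and 0 by voom, and 0 of the 8 members tested. Differences of the other members were -2.18 for Cxcl1 (SE 1.49), -1.77 for Cxcl2 (SE 1.20), -1.34 for Cxcr2 (SE 0.96), -0.22 for Cxcr6 (SE 0.23) and -0.13 for Cxcr4 (SE 0.35), with adjusted p from 0.711 to 0.978. The first 3 of these rest on lasered library 1 of day 3, and without it they and Cxcl10 were not tested.

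The genes most like a member across the 12 libraries were taken among 10606 protein-coding genes, by Pearson correlation of log2(value + 1) with each day's mean removed, as a description. The libraries share treatment and depth within a day. For Cxcl10 they were H2-Q6 (r = 0.975), Sgpl1 (0.973) and Aldh3b1 (0.971), for Cxcl16 Unc93b1 (0.976), C1ra (0.969) and Icam1 (0.967), and for Cxcl12 they included Six3 (0.938) and Anp32b (0.926).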

How the data were processed

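Sequencing covered poly(A) RNA in 12 libraries of mouse retina, with groups and replicate numbers from the sample titles. Libraries were made with a directional kit, per the labels' protocols. STAR 2.7.0, edgeR 3.28.0 and mm10 are named with no role, per the submitters' processing notes, and the sources used here do not give the counting tool, whether strand was used, or the annotation. Each day has 1 deposited table of a signal per gene, named TPM by the authors although columns sum to 953049 to 1045986, so the test planned for TPM was kept for the signal.

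Multiplying by union exon lengths of GENCODE M21 (matched by start and end for 53681 of 54367 genes) yielded whole multiples of a step per library, once a factor of 6 values cycling with table position (0.955 to 1.05) was taken out. Of values under 20 reads, 99.75% to 99.84% came out whole within 0.05. Reads so recovered served for depth, floors (3 reads, worth 0.445 to 0.605 at 1 kb on day 3 and 0.292 to 0.380 on day 7) and 95% intervals, all of which cover counting error only. Ratios of read totals, given where controls held 1 to 10 reads, are divided by the groups' summed reads and have exact binomial intervals.

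Each day was fitted alone with limma 3.58.1 in R 4.3.3 (lmFit, eBayes with trend, 2-sided) on log2(value + 1) at a mean of at least 1, and the difference between days as an interaction over 12 libraries. The script was tested on simulated data. Python 3.11.15 (pandas 2.3.3, NumPy 2.4.6, SciPy 1.17.1, matplotlib 3.10.9) did the rest. Alternatives were other pseudocounts, filters and scalings, library weights, a replicate block, a joint fit, leaving out each library and, added after the data were seen, the factor undone and voom on recovered reads (at least 10 in total). Named genes are the members, the 2 smallest p-values (or those past the threshold) of 5 pathway lists, and the 3 genes most like each of Cxcl10, Cxcl12 and Cxcl16, of which 1 is not reported here. The members and the 13 lists beside them (144 genes) were chosen with earlier results of these data known.

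The other eye of each mouse was the control, but the labels do not say that equal numbers mark a mouse. On day 7 the deviations from group means correlated between equal numbers by 0.485, 0.559 and 0.128, all over 0.1. Lasered library 3 correlated more with control library 1 (0.205) than with its own number. With 3 libraries per group, these correlations do not settle which libraries share a mouse. With a replicate block in limma, Cxcl16 on day 7 had an adjusted p of 0.129, against 0.218 without it. The p-values reported are those of the fit without the block.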

Additional observations from a re-analysis of the deposited data

Results flagged for a closer look

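Cxcl14, a CXC chemokine of many healthy tissues, was picked out because its groups stood apart on both days in opposite directions. It had 7.59, 7.53 and 8.02 in lasered and 6.56, 5.70 and 5.08 in control retinas of day 3, and 218, 175 and 203 in lasered and 280, 230 and 230 in control retinas of day 7. The log2 fold change on day 7 minus that on day 3 was -0.68 (SE 0.21) and did not pass in limma over all genes (adjusted p = 0.396). That difference comes from the same values that picked the gene. The rule was applied to the members and the genes named from the lists, and its share over all genes was not counted. On day 3 alone, 27.7% of tested genes stood apart with the lasered values higher. Groups of 3 libraries were too small for the rule on single outlying samples.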

How the results depend on the processing

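Of 166 values of members' log2 fold changes per day under the alternatives, 162 kept their direction and side of the threshold, a direction that the filter fixes for Cxcl1, Cxcl2, Cxcl10 and Cxcr2 on day 3. Cxcl10 passed on day 3 in the joint fit of 12 libraries (1 member past the threshold) and Cxcl16 on day 7 with library weights (1 member), and weights turned the signs of Cxcl12 (0.085) and Cxcr4 (-0.012) on day 7; the cause was not tested. With a replicate block 0 genes passed on day 3, where equal numbers correlated by only 0.041, 0.016 and 0.077 (each library best with its own number, a hint from the data and not the design), and 53 on day 7, and it changed no call of a member.

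The number of genes past the threshold on day 3, 25, was 0 with no filter, 15 at a mean of at least 0.1, 14 with median-of-ratios rescaling, 12 with quantile normalization, 369 with library weights, 1016 in the joint fit, and 0 to 294 leaving out a library (294 without lasered library 1, 0 without any 1 of the controls, 1 without lasered library 3). On day 7, 38 became 13 with no filter, 25 at a mean of at least 0.1, 24 after median-of-ratios rescaling, 114 with weights, 14 by voom, 22 in the joint fit and 0 to 41 leaving out a library (0 without lasered or control library 3, and 11, 9 and 6 without lasered 1, control 1 and control 2). For the difference between the days, 0 became 2 at a pseudocount of 0.1, 28 with no filter, 12 at a mean of at least 0.1, 1119 with weights and 0 to 3 leaving out a library. These causes were not tested.

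The difference between days near 0 of Cxcl16 turned to -0.015 and -0.0064 at pseudocounts of 0.1 and 0.5, -0.041 with the cyclic factor undone, -0.059 by voom and -0.24 to 0.31 leaving out a library. That of Cxcr6 turned to 0.40 at a pseudocount of 0.1 and 1.11 by voom, that of Cxcl10 to 7.64e-05 with weights, and that of Cxcr4 ranged from -0.29 to 0.19 leaving out a library. Over all genes the day 3 median was 0.16, against -0.03 with median-of-ratios rescaling and -0.07 with quantile normalization, and under these Cxcl16 was 0.59 and 0.56, Cxcl12 0.52 and 0.43 and Cxcr6 0.18 and 0.12. The sign of the other 4 tested members (Cxcl1, Cxcl2, Cxcl10 and Cxcr2) was fixed by the filter, which they passed through lasered library 1 with controls at or near 0. Depth limits Cxcl9, Cxcr3 and, on day 7, Cxcl1, Cxcl2, Cxcr2 and Cxcr6, most of whose values are at or under 3 reads.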
